A study of Mus musculus with 61 samples.

Results

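The RNA-seq libraries described here compared activated CD4+ T cells that lack STAT5 with CD4+ T cells that have it. They are the 3 libraries titled S5KO_CD4 (Stat5a/b-null cells) and the 3 titled WT_CD4 (WT cells), both transduced with an empty retroviral vector, and were chosen by these titles. They make up 6 of the 61 mouse libraries of the series and 6 of its 30 libraries of CD4+ T cells. All 6 come from C57BL/6 mice aged 2 months. The null cells came from mice with floxed Stat5a/b alleles and a Cd4-Cre transgene, which is active from the double-positive stage of thymic development and deletes the locus in CD4 and CD8 T cells alike. The genotype entry of the labels names floxed Stat5a/b in both groups, so that the background was taken from the titles. Naive CD4+ T cells were sorted from pooled lymph nodes and spleens, activated with antibodies against the T cell receptor and CD28, transduced, cultured with IL-2 and sorted again for GFP, the marker of transduction. Both groups therefore share the activation, the vector and the cytokine. The other 24 libraries of CD4+ T cells carry a vector encoding STAT5B or its N642H, Y665F or Y665H form in either background, and those with STAT5B and Y665H are used here to follow the null-WT difference in libraries that the comparison did not contain.

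STAT5A and STAT5B are closely related transcription factors encoded side by side. In T cells they are phosphorylated by the kinases JAK1 and JAK3 when IL-2, IL-7 and other cytokines bind receptors that contain the common gamma chain, and the phosphorylated dimers bind the motif TTCNNNGAA, called a GAS element. Known targets include their own feedback inhibitors (the CIS and SOCS proteins), the IL-2 receptor chains and regulators of survival and growth. STAT5 signaling is also known to favour some helper fates and to oppose the follicular helper fate, which is directed by the repressor BCL6.

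Between 26834419 and 47040687 reads per library were counted on genes (median, 35653676), and levels are given as CPM, read counts relative to the scaled library size. The labels do not say whether replicates came from separate animals or cultures, so that p-values measure a spread between libraries, which may not be that between animals. In the fit across all genes this spread was estimated from all 30 libraries of CD4+ T cells, taken as independent, and not from the 6 alone. WT replicate 3 stood apart from the other WT libraries. On the first principal component of the 6 libraries, which held 68.4% of the variance, the null libraries lay between -26.56 and -26.01, WT replicates 1 and 2 at 29.2 and 35.4, and WT replicate 3 at 14.3. The libraries also differed in sex-linked transcripts. Xist, expressed from the inactive X chromosome of female cells, was at 0.715, 2.96 and 2068 CPM in WT replicates 1 to 3 and at 659, 2.84 and 1605 CPM in the null replicates. The Y-linked Ddx3y was at 85.5, 90.7 and 0.358 CPM in WT and at 93.8, 144 and 18.6 CPM in null cells, so that null replicates 1 and 3 held transcripts of both sexes. The part of these differences in the results was not tested. The CD4 T cell genes were expressed in all 6 libraries, with Cd4 itself at 825, 998 and 1003 CPM in WT and 1184, 1169 and 1002 CPM in null cells.

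The targeted genes were checked first. Stat5b (chr11:100780731-100850724, mm10) was at 187, 209 and 207 CPM in WT cells and at 2.78, 5.30 and 9.49 CPM in null cells. Stat5a, its neighbour at chr11:100859351-100885169, was at 137, 165 and 172 CPM in WT and 1.70, 3.13 and 6.66 CPM in null cells. The null libraries thus kept 2.91% ± 1.68 (SD, n = 3) of the WT level of Stat5b and 2.42% ± 1.61 (SD, n = 3) of that of Stat5a. Exact two-sided permutation tests over the 6 libraries gave p = 0.1 for each, the smallest value that 3 against 3 libraries allow. In the fit across all genes with edgeR's quasi-likelihood test, Stat5b had a log2 fold change of -5.12 (SE 0.30, adjusted p = 3.6e-12) and Stat5a of -5.39 (SE 0.58, adjusted p = 3e-07). Both genes were lowest in null replicate 1 and highest in null replicate 3. In bulk RNA, a few cells with an intact locus and a low level in every cell cannot be told apart.

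Many genes differed between null and WT cells, in both directions. A gene was called where its difference exceeded 1 on the log2 scale with an adjusted p below 0.05. Of 21975 genes tested, 1029 (4.68%) were called, with 561 (2.55%) higher and 468 (2.13%) lower in null cells. The median change was 2.97-fold among the raised and 3.80-fold among the lowered genes, and the largest falls exceeded the largest rises (plot of change against level). Among the raised genes, 465 had a mean of at least 1 CPM, and among the lowered 345. The groups' libraries did not overlap for 1010 of the 1029 called genes (98.2%), against 5895 of all genes tested (26.8%). A lack of overlap stated below for a called gene therefore adds little to its call. The number called was 658 without WT replicate 2, with 353 raised and 305 lowered genes, and 1216 without WT replicate 3.

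**Figure D1:**
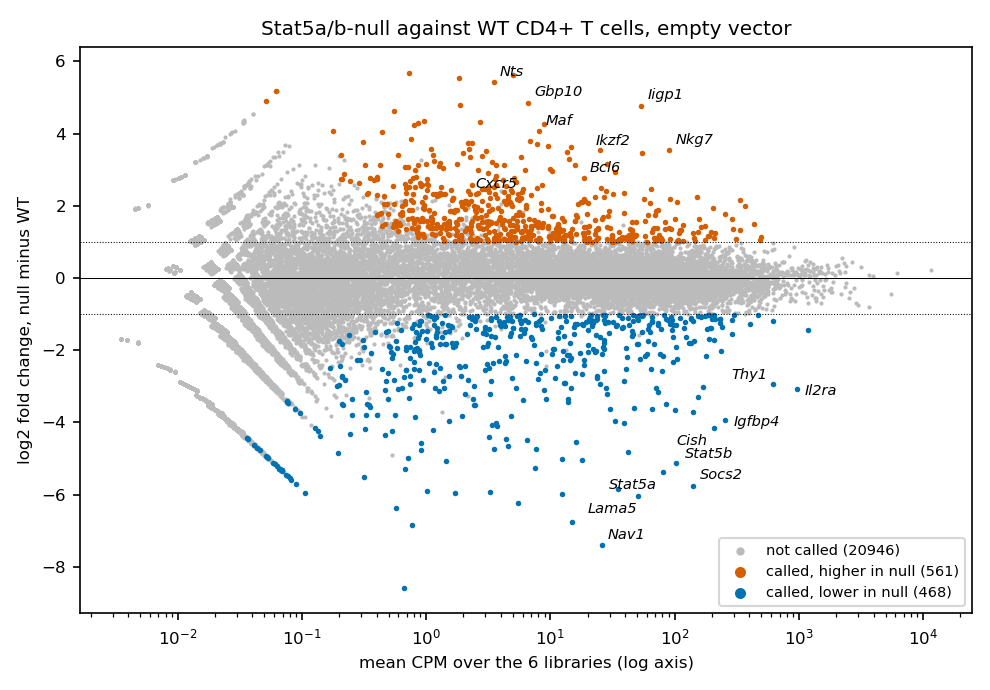
Each point is a gene, with its mean CPM over the 6 libraries on a log x axis and its log2 fold change (null minus WT, empty vector) on the y axis. Dotted lines mark the fold limit of 1 on the log2 scale, orange points the 561 genes called higher and blue points the 468 called lower. Nav1, Socs2 and the Stat5 genes lie far below the bulk of genes, and Nts, Gbp10 and Iigp1 far above it.

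The largest fall was that of Nav1 (chr1:135434580-135607295), which encodes a microtubule-associated protein named for its role in neurons. Nav1 was at 64.0, 45.3 and 45.9 CPM in WT cells and 0.137, 0.232 and 0.587 CPM in null cells, a 168-fold difference (log2 fold change -7.39, SE 0.54, adjusted p = 4.5e-10). It was expressed at similar levels in the 3 WT libraries and was near the detection limit in all 3 null libraries. The second was Akr1c18, an aldo-keto reductase that inactivates progesterone, at 15.0, 20.5 and 53.1 CPM in WT and 0.275, 0.203 and 0.345 CPM in null cells (log2 fold change -6.75, SE 0.68, adjusted p = 1.2e-07). WT replicate 3 held the highest level, whereas it held the lowest WT level of 354 of the 468 lowered genes. Other genes of the aldo-keto reductase cluster on chromosome 13 fell with it. Of 8 members tested, 3 were called lower and none higher. Akr1c12 was at 16.7, 19.1 and 40.3 CPM in WT and 2.56, 2.46 and 2.45 CPM in null cells (log2 fold change -3.35, SE 0.53, adjusted p = 6.7e-05), and Akr1c13 at 28.3, 32.2 and 66.6 against 10.03, 8.61 and 11.05 CPM in null cells (log2 fold change -2.10, SE 0.43, adjusted p = 0.0011). These 2 genes are near-identical copies, so that the split of reads between them is uncertain. The Akr1c genes were followed by genes of diverse roles. Lama5, a laminin chain of basement membranes, was at 153, 78.9 and 69.3 CPM in WT and 0.879, 1.51 and 2.21 CPM in null cells (log2 fold change -6.05, SE 0.72, adjusted p = 1.4e-06). Drc1, a component of motile cilia, was at 25.5, 40.3 and 8.18 against 0.192, 0.493 and 0.483 CPM in null cells (log2 fold change -5.99, SE 0.79, adjusted p = 6.5e-06), and the extracellular matrix protein gene Abi3bp at 18.1, 17.3 and 8.63 against 0.165, 0.348 and 0.656 CPM in null cells (log2 fold change -5.27, SE 0.57, adjusted p = 3.3e-07). Stxbp6, Cdhr3, Nov and Sema3b, together with Socs2, Stat5a and Stat5b, completed the 12 largest falls at a mean of 1 CPM or more, leaving out symbols that begin with Gm and a digit or end in Rik, among them 6430571L13Rik, which fell more than Socs2. For Stxbp6, Cdhr3, Nov and Sema3b the null libraries were between 0 and 0.242 CPM and the WT libraries between 0.926 and 15.4 CPM, and Sema3b had 1 read in each null library, too few for a fold.

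Among 30 genes listed as STAT5 targets, 15 were called lower in null cells and 2 higher, with a median log2 fold change of -1.18 beside -0.12 over all genes tested. The raised genes were Ifng and Tbx21, and the feedback inhibitors were among those that fell. Cish encodes CIS, which binds activated cytokine receptors and limits STAT5 signaling. It was at 366, 526 and 298 CPM in WT and 10.2, 25.6 and 31.1 CPM in null cells, and no library of either group came near the other (17.8-fold lower, log2 fold change -4.15, SE 0.31, adjusted p = 6.3e-10). Socs2, which acts mainly on growth hormone receptor signaling, was at 299.8, 336 and 197 CPM in WT and 2.86, 5.45 and 7.25 CPM in null cells (53.9-fold lower, log2 fold change -5.75, SE 0.34, adjusted p = 3.6e-12). Socs1, the main inhibitor of interferon-gamma and JAK signaling, was at 104, 207 and 85.3 against 8.25, 16.5 and 19.3 CPM in null cells (log2 fold change -3.17, SE 0.36, adjusted p = 5.9e-07), and Socs3, which acts on the IL-6 receptor family, at 30.8, 42.4 and 20.7 against 2.53, 6.09 and 9.15 CPM in null cells (log2 fold change -2.41, SE 0.51, adjusted p = 0.0017). In all 4 genes null replicate 1 was the lowest library, as it was for the remaining Stat5a and Stat5b reads. It was also the lowest null library for the raised genes Iigp1 and Tbx21, and the highest for the raised Pdcd1. A link between these orders was not tested. Among 16 inhibitors of the JAK-STAT pathway Cish, Socs1, Socs2 and Socs3 were the 4 called lower, also under every alternative that kept the fold limit. Of the other 12, 2 were called higher. Ptpn11, which encodes the phosphatase SHP2, was at 186, 212 and 283 CPM in WT and 715, 607 and 611 CPM in null cells (log2 fold change 1.51, SE 0.19, adjusted p = 3.5e-06). Socs5 was at 10.4, 13.4 and 13.3 against 27.1, 24.5 and 26.4 CPM in null cells (log2 fold change 1.07, SE 0.17, adjusted p = 5.6e-05), and its log2 fold change was 0.96 without WT replicate 1.

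Promoters of 3 called genes are shown because they hold the GAS letters more than once, and were chosen after the matches were seen. The motif TTCNNNGAA, which reads the same on both strands, was searched in windows of 300 bases, 250 before and 50 after the annotated start (RefSeq, GRCm38.p6). Of 32851 windows, 8.30% hold it and 0.457% hold it at least 2 times. The windows of Cish (chr9:107296409-107296708, + strand) and Lta (chr17:35205302-35205601, - strand), lowered in null cells, hold 2 matches each, and that of Bcl6 (chr16:23981234-23981533, - strand), raised in null cells, holds 3. The Bcl6 window is that of its 2 annotated starts with more matches. Capitals mark the matches.
Cish: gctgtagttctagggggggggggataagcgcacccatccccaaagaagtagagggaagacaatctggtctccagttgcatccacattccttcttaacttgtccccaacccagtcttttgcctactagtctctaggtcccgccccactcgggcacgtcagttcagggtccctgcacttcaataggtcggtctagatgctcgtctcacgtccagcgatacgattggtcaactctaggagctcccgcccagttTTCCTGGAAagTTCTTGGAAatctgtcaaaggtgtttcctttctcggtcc
Lta: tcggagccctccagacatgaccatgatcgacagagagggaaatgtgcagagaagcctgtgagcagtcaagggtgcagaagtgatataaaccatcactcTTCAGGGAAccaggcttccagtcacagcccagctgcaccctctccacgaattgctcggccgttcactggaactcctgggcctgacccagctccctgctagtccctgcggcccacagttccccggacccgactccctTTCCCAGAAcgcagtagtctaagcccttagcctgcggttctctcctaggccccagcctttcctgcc
Bcl6: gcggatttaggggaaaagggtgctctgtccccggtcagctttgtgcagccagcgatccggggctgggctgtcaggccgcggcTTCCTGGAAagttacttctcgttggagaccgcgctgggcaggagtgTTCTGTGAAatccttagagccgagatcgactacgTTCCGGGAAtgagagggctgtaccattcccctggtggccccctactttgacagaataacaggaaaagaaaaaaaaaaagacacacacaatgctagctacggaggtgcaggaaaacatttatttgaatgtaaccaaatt
In Cish the matches begin at bases 1 and 12 of the transcript, in Lta 152 and 16 bases before its start, and in Bcl6 168, 122 and 88 bases before it. A match describes letters and not binding. Socs2, Osm and Ikzf2 have no entry in this table, and only 343 of the 468 lowered genes have a window, so that a comparison of the shares of raised and lowered genes with the motif is void.

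Of 8 receptor genes of the common gamma-chain family, 4 were called lower and none higher. Of the other 4, Il21r was higher at an adjusted p below 0.05 but under the fold limit, and Il2rg, Il9r and Il15ra did not pass. Il2ra (CD25), the chain that gives the IL-2 receptor its high affinity, was at 1864, 2033 and 1266 CPM in WT and 154, 191 and 268 CPM in null cells (8.43-fold lower, log2 fold change -3.08, SE 0.25, adjusted p = 1.4e-09). All null libraries lay far below all WT libraries. Il4ra, the specific chain of the IL-4 receptor, was at 343, 480.5 and 315 against 84.5, 87.9 and 110.3 CPM in null cells (log2 fold change -2.01, SE 0.18, adjusted p = 1.2e-08), and Il7r, that of the IL-7 receptor, at 89.3, 76.0 and 28.7 against 16.0, 21.6 and 13.2 CPM in null cells (log2 fold change -1.93, SE 0.49, adjusted p = 0.0079). WT replicate 3 held the lowest WT level of Il7r, at 28.7 CPM. Il2rb, the chain that carries the IL-2 signal, was at 543, 818 and 370.4 against 215, 265 and 236 CPM in null cells (log2 fold change -1.27, SE 0.27, adjusted p = 0.0018), with a log2 fold change of -0.93 and no call without WT replicate 2. The common chain itself, Il2rg, was at 471, 584 and 511 CPM in WT and 593, 620.0 and 565 CPM in null cells (log2 fold change 0.18, SE 0.12, adjusted p = 0.37).

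**Figure D2:**
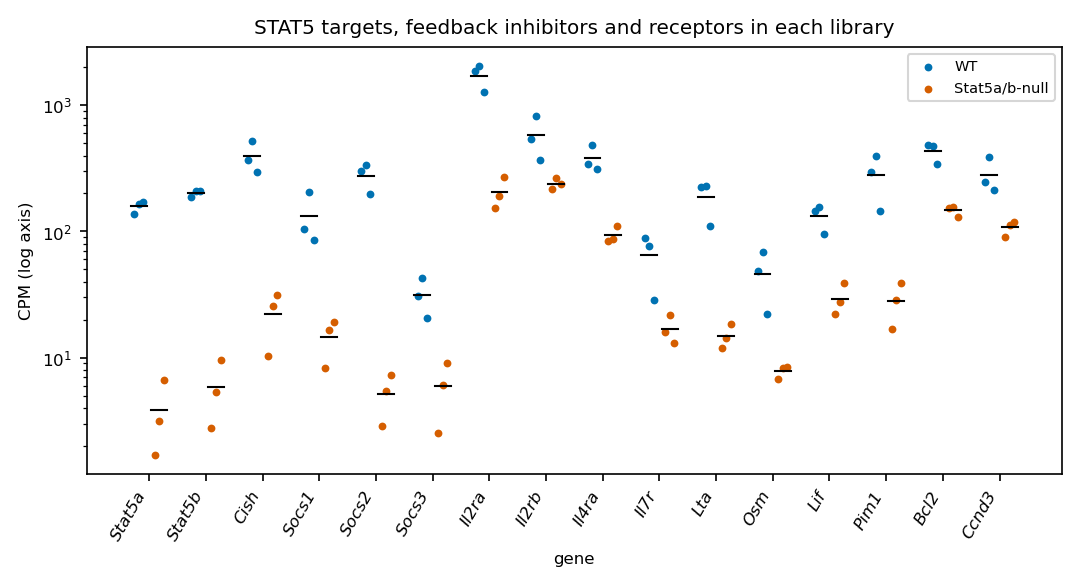
CPM (log y axis) of 16 genes, all chosen from those called lower in null cells, in each WT library (blue) and each null library (orange). A black line marks the group mean of 3. The groups are separate for all 16 genes, as for 98.2% of all called genes. Examples are Cish, at 298 to 526 CPM in WT and 10.2 to 31.1 CPM in null cells, and Il2rb, at 370 to 818 and 215 to 265 CPM.

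Of the 5 cytokine genes in the STAT5 list, Lta, Osm and Lif were called lower, Ifng was called higher and Il24 was not called. Lta (lymphotoxin alpha, which organizes lymphoid tissue) was at 223, 230.5 and 109.5 CPM in WT and 12.01, 14.3 and 18.4 CPM in null cells (12.6-fold lower, log2 fold change -3.66, SE 0.47, adjusted p = 4e-06). Osm (oncostatin M) was at 48.2, 68.3 and 22.2 against 6.79, 8.20 and 8.35 CPM in null cells (log2 fold change -2.57, SE 0.36, adjusted p = 1.5e-05) and the related Lif at 147, 155 and 94.9 against 21.99, 27.4 and 38.7 CPM in null cells (log2 fold change -2.17, SE 0.29, adjusted p = 8.8e-06). The groups were separate for all 3 genes. Among 24 cytokine genes 8 were called lower and 3 higher. Tnf, the neighbour of Lta on chromosome 17, was at 40.8, 47.2 and 36.3 CPM in WT and 10.1, 10.6 and 16.8 CPM in null cells (log2 fold change -1.73, SE 0.19, adjusted p = 5.7e-07). Il3, a growth factor of myeloid and mast cells, was at 9.01, 9.13 and 2.34 against 0.192, 0.116 and 0.483 CPM in null cells (log2 fold change -4.73, SE 1.05, adjusted p = 0.0027), and was not called with the replicate number as a block within each background (adjusted p = 0.12). The type 2 cytokine Il13 was at 1.75, 1.92 and 0.505 against 0, 0.116 and 0 CPM in null cells, with 4 reads in a single null library. Il4 had 5 reads in a single null library, and was not called without null replicate 1 or 2 or WT replicate 1 or 2 (adjusted p of 0.071 to 0.14). Csf2 was called lower as well, but not without these same libraries (adjusted p of 0.16 to 0.21). It was not called either with the 6 libraries fitted alone (adjusted p = 0.081), library totals or the block within each background. Raised cytokine genes were expressed at low levels. Ifng (interferon gamma) was at 0.258, 0.141 and 0.189 CPM in WT and 0.770, 2.23 and 3.24 CPM in null cells (log2 fold change 3.40, SE 0.74, adjusted p = 0.0022), and the dendritic cell attractant Xcl1 at 0.0286, 0.0704 and 0.147 against 1.21, 1.77 and 2.52 CPM in null cells (log2 fold change 4.36, SE 0.70, adjusted p = 8.7e-05). Il17f was at 0.572, 0.446 and 0.126 against 1.62, 2.14 and 1.93 CPM in null cells (log2 fold change 2.33, SE 0.60, adjusted p = 0.0081).

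Of the 10 genes of survival and growth in the STAT5 list, Pim1, Pim3, Bcl2 and Ccnd3 were called lower. Pim2, Myc, Ccnd2, Cdk6, Bcl2l1 and Mcl1 were not called, and none was called higher. The PIM kinases promote survival and translation. Pim1 was at 297, 395 and 144 CPM in WT and 16.9, 28.5 and 39.3 CPM in null cells (9.88-fold lower, log2 fold change -3.30, SE 0.42, adjusted p = 4.2e-06), and Pim3 at 59.98, 72.3 and 62.9 against 24.6, 26.8 and 33.8 CPM in null cells (log2 fold change -1.195, SE 0.15, adjusted p = 3.6e-06). Bcl2, the founding inhibitor of mitochondrial apoptosis, was at 487, 473 and 339 against 155, 157 and 129.8 CPM in null cells (log2 fold change -1.56, SE 0.21, adjusted p = 7.3e-06). Of 17 genes of the BCL2 family it was the 1 called lower, while Bcl2a1d, which has near-identical copies, was the 1 called higher, at 28.4, 21.7 and 21.5 against 55.7, 41.7 and 52.2 CPM in null cells (log2 fold change 1.06, SE 0.28, adjusted p = 0.011). The log2 fold change of Bcl2a1d was 0.98 without null replicate 1, and its call was also lost without WT replicate 2 (adjusted p = 0.063). Among the D cyclins, which start the cell cycle, Ccnd3 was at 245, 390.4 and 211 CPM in WT and 91.2, 113 and 119.7 CPM in null cells (log2 fold change -1.39, SE 0.19, adjusted p = 1.4e-05). Ccnd2 was at 851, 917 and 927 against 742, 641 and 676 CPM in null cells (log2 fold change -0.39, SE 0.11, adjusted p = 0.018), under the fold limit.

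Genes of proliferation and metabolism shifted by less than the fold limit, mostly downward. At an adjusted p under 0.05 with no fold limit, 6.83% of all genes tested were higher and 7.06% lower in null cells. Of 38 cell cycle genes 29 were lower and none higher by this rule, with a median log2 fold change of -0.54, and 3 passed the fold limit (Ccnd3, Cdt1 and E2f2). The licensing factor gene Cdt1 was at 108, 148 and 122 CPM in WT and 56.0, 65.1 and 58.9 CPM in null cells (log2 fold change -1.07, SE 0.16, adjusted p = 2.2e-05). E2f2, an activator of S phase genes, was at 226, 285 and 234 against 112, 150.1 and 106 CPM in null cells (log2 fold change -1.02, SE 0.17, adjusted p = 0.00019). Without WT replicate 2 the 2 genes were at -0.94 and -0.91 and not called, and E2f2 was also under the limit without null replicate 1 (-0.96) or 3 (-0.92) and under other filters and scalings. Of 19 genes of cholesterol synthesis and uptake 16 were lower and none higher with no fold limit (median, -0.74), and 5 passed it. Mvd, which makes isopentenyl diphosphate, was at 86.4, 103 and 52.5 CPM in WT and 29.1, 27.3 and 29.0 CPM in null cells (log2 fold change -1.505, SE 0.22, adjusted p = 2.3e-05). Fdps, which makes farnesyl diphosphate, was at 328, 346 and 159 CPM in WT and 114, 88.6 and 116 CPM in null cells (log2 fold change -1.39, SE 0.27, adjusted p = 0.0008), and Lss, which makes lanosterol, had a log2 fold change of -1.29 (SE 0.26, adjusted p = 0.00088). Of 18 genes of glucose uptake and glycolysis 9 were lower and none higher with no fold limit (median, -0.56), among them Slc2a1 (log2 fold change -0.79) and Hk2 (-0.78). Of 16 ribosome biogenesis genes 8 were lower and none higher (median, -0.37), such as Nop56 (log2 fold change -0.64, SE 0.11, adjusted p = 0.00016). These counts depended on single libraries. The cell cycle count was 11 without WT replicate 2, 16 without null replicate 3 and 17 without null replicate 2, that of cholesterol genes 10 without null replicate 2 or WT replicate 1, and that of glycolysis genes 1 without null replicate 2 or WT replicate 2.

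**Figure D3:**
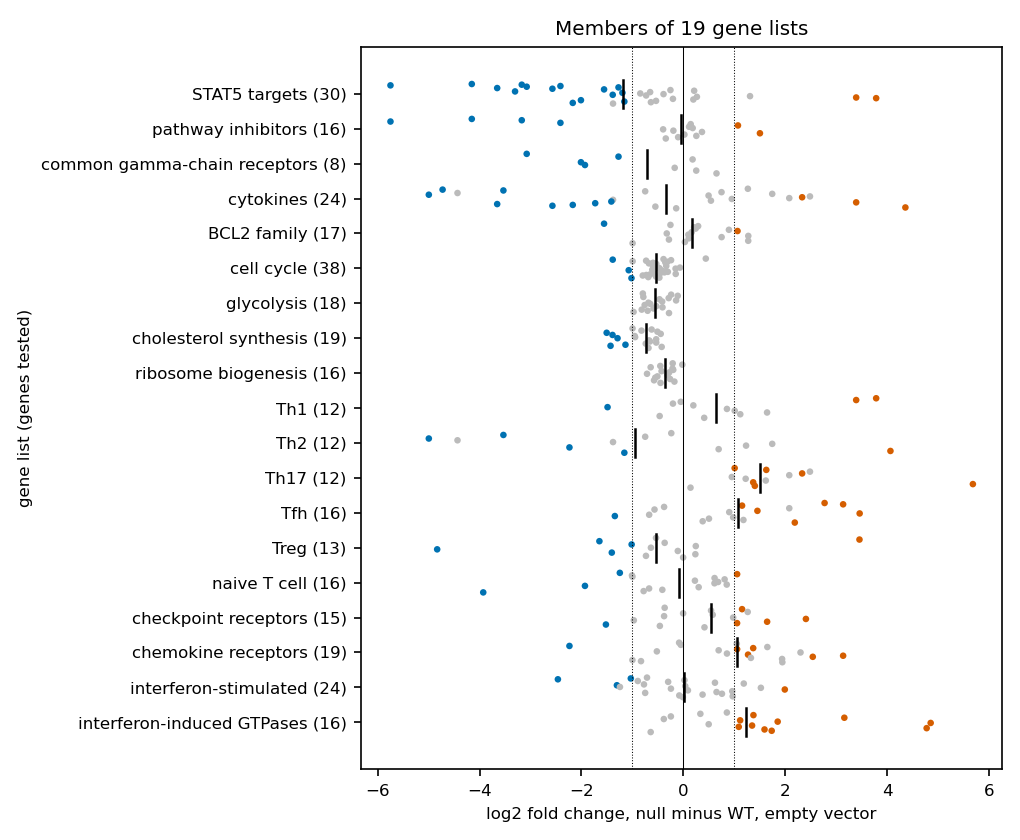
Log2 fold change (null minus WT, empty vector; x axis) of each gene tested in 19 lists (y axis, with the number of genes tested), in orange where called higher, blue where called lower and grey where not called. Black bars mark list medians, from -1.18 for STAT5 targets to 1.51 for Th17 genes, and dotted lines the fold limit.

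Genes of follicular helper (Tfh) cells were higher in null cells in part. Of 16 Tfh genes 6 were called higher, 1 was called lower and 9 were not called, with a median log2 fold change of 1.07. Of all genes tested 2.55% were called higher and 2.13% lower. The log2 fold change was below 0 for 4 of the 16. Among them was the uncalled Icos, at 252, 274 and 224 CPM in WT and 202, 211 and 164 CPM in null cells (log2 fold change -0.38, SE 0.17, adjusted p = 0.14). Bcl6, which directs the Tfh programme, was at 3.29, 3.33 and 7.49 CPM in WT and 25.9, 34.7 and 36.6 CPM in null cells (6.85-fold higher, log2 fold change 2.78, SE 0.31, adjusted p = 5.1e-07). The highest WT level was that of WT replicate 3, and all null libraries lay above it. Cxcr5, the receptor that guides cells to B cell follicles, was at 0.773, 0.657 and 1.16 against 7.97, 7.80 and 7.21 CPM in null cells (8.81-fold higher, log2 fold change 3.14, SE 0.30, adjusted p = 3.9e-08). Pou2af1, a transcriptional coactivator of B cells that is also made by Tfh cells, was at 12.7, 16.1 and 32.5 against 99.1, 126 and 55.6 CPM in null cells (log2 fold change 2.19, SE 0.52, adjusted p = 0.0048). In both genes WT replicate 3 held the highest WT level, still under the lowest null library. The transcription factor gene Tox2 was at 0.0286, 0.188 and 0.736 against 1.73, 3.45 and 5.87 CPM in null cells (log2 fold change 3.46, SE 0.77, adjusted p = 0.0028). Il6st, which encodes the gp130 chain of the IL-6 receptor family, was at 50.3, 61.6 and 75.7 CPM in WT and 202, 191 and 122 CPM in null cells (log2 fold change 1.46, SE 0.24, adjusted p = 0.00012). Pdcd1, the gene of the inhibitory receptor PD-1, was at 96.7, 104 and 143 against 315, 245 and 204 CPM in null cells (log2 fold change 1.15, SE 0.21, adjusted p = 0.00028), with a log2 fold change of 0.97 and no call without null replicate 1. Sh2d1a, the adaptor SAP of SLAM receptors that Tfh cells need, went the other way, at 66.1, 66.0 and 33.5 against 20.4, 24.1 and 20.8 CPM in null cells (log2 fold change -1.34, SE 0.26, adjusted p = 0.00064). Maf, a transcription factor of Tfh and other helper cells, was counted in the Th2 list and not in the Tfh list. It was among the 12 largest rises, at 1.09, 0.446 and 1.199 CPM in WT and 10.004, 17.4 and 18.6 CPM in null cells (16.8-fold higher, log2 fold change 4.07, SE 0.57, adjusted p = 1.4e-05).

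Markers of other helper fates changed in part. Of 12 Th17 genes 6 were called higher and none lower, with a median log2 fold change of 1.51. Rora, a nuclear receptor of the Th17 programme, was at 14.2, 10.8 and 13.2 CPM in WT and 39.6, 38.7 and 39.8 CPM in null cells (log2 fold change 1.63, SE 0.25, adjusted p = 6.2e-05), with nearly equal null libraries. Ccr6, the chemokine receptor of Th17 cells, was at 49.5, 42.4 and 57.8 against 140.1, 109.7 and 138 CPM in null cells (log2 fold change 1.37, SE 0.32, adjusted p = 0.0035), and the aryl hydrocarbon receptor gene Ahr at 4.52, 6.85 and 4.36 against 12.2, 10.7 and 18.8 CPM in null cells (log2 fold change 1.41, SE 0.36, adjusted p = 0.0087). The groups did not overlap for these 3 genes. Without null replicate 3 the log2 fold change of Ahr was 1.13, its call was lost and 3 genes of the list were called. Of 12 Th1 genes 2 were called higher and 1 lower. Tbx21, which encodes the Th1 factor T-bet, was at 1.202, 0.915 and 0.694 CPM in WT and 4.34, 9.80 and 24.6 CPM in null cells (13.8-fold higher, log2 fold change 3.79, SE 0.68, adjusted p = 0.00031), with a wide spread among the null libraries. Of 12 Th2 genes 4 (Ccr4, Nfil3, Il13 and Il4) were called lower and 1 (Maf) higher. Gata3, the defining Th2 factor, was not among them, at 75.9, 83.7 and 78.6 CPM in WT and 58.8, 74.0 and 69.5 CPM in null cells (log2 fold change -0.24, SE 0.16, adjusted p = 0.37). Ccr4, a chemokine receptor of Th2 and regulatory T cells, was at 168, 188 and 165 against 45.2, 42.1 and 23.0 CPM in null cells (log2 fold change -2.24, SE 0.21, adjusted p = 2.9e-08). Nfil3 was at 34.5, 53.0 and 25.6 against 16.5, 16.0 and 18.3 CPM in null cells (log2 fold change -1.16, SE 0.32, adjusted p = 0.014), and was not called without WT replicate 2 (-0.83) or null replicate 2 (adjusted p = 0.061). Il13 and Il4 were near 0 CPM in null cells, and the call of Il4 was lost without null replicate 1 or 2 or WT replicate 1 or 2.

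Regulatory T cell genes split. Of 13 tested, 4 were called lower and 1 higher (median, -0.54). Ikzf2, which encodes the factor Helios, was at 9.39, 8.12 and 9.59 CPM in WT and 99.6, 92.0 and 107 CPM in null cells (11.01-fold higher, log2 fold change 3.46, SE 0.26, adjusted p = 6.3e-10), with a narrow spread in both groups. Its relative Ikzf4 (Eos) moved the other way, at 41.7, 37.8 and 35.8 against 8.58, 15.6 and 12.6 CPM in null cells (log2 fold change -1.65, SE 0.29, adjusted p = 0.00025). Lrrc32, which encodes GARP, the surface anchor of latent TGF-beta, was at 82.1, 116 and 44.4 CPM in WT and 1.54, 2.38 and 4.69 CPM in null cells (28.5-fold lower, log2 fold change -4.83, SE 0.51, adjusted p = 2.3e-07). The orphan receptor gene Gpr83 was at 8.18, 9.10 and 10.1 against 3.30, 3.65 and 3.38 CPM in null cells (log2 fold change -1.40, SE 0.27, adjusted p = 0.00057), and Tnfrsf18, the gene of the co-stimulator GITR, at 572, 807 and 505 against 273, 278 and 382 CPM in null cells (log2 fold change -1.01, SE 0.16, adjusted p = 5.3e-05). All null libraries lay below all WT libraries for these 3 genes. Tnfrsf18 lay close to the fold limit and its log2 fold change was -0.79 without WT replicate 2, -0.93 without null replicate 1 and -0.93 without null replicate 2. Foxp3, the defining gene of the lineage, was at 9.87, 9.90 and 5.55 CPM in WT and 3.41, 10.8 and 3.18 CPM in null cells, where 2 libraries lay below all WT libraries and 1 above them (log2 fold change -0.54, SE 0.49, adjusted p = 0.54).

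Of 16 genes of naive T cells 1 was called higher and 3 lower. Ccr7, a homing receptor of lymph nodes, was at 257, 367 and 329 CPM in WT and 574, 670.1 and 737 CPM in null cells (log2 fold change 1.06, SE 0.24, adjusted p = 0.0034). The groups did not overlap, but the log2 fold change was 0.93 without WT replicate 1 and 0.97 without null replicate 3, and neither was called. Igfbp4, which binds insulin-like growth factors, was at 408, 693 and 344 CPM in WT and 23.0, 46.3 and 25.5 CPM in null cells (15.2-fold lower, log2 fold change -3.93, SE 0.36, adjusted p = 2.1e-08). The factors Tcf7 (log2 fold change 0.61, SE 0.16, adjusted p = 0.01) and Lef1 (log2 fold change 0.81, SE 0.15, adjusted p = 0.00055), which keep T cells in a less differentiated state, were higher by less than the fold limit.

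Interferon-induced GTPases, which attack the vacuoles of intracellular pathogens, were higher in part. Of 16 GTPase genes 10 were called higher and none lower (median, 1.23). The other 6 did not pass the test, and 3 of these, Gbp5, Gbp7 and Gbp2b, had log2 fold changes below 0. Iigp1 was at 4.21, 4.86 and 2.31 CPM in WT and 53.6, 90.9 and 167 CPM in null cells (27.5-fold higher, log2 fold change 4.78, SE 0.68, adjusted p = 1.9e-05). Gbp9 was at 12.7, 12.5 and 13.7 against 40.0, 55.3 and 45.3 CPM in null cells (log2 fold change 1.85, SE 0.25, adjusted p = 1e-05), and Gbp4 at 34.4, 43.3 and 37.0 against 78.4, 106 and 114 CPM in null cells (log2 fold change 1.38, SE 0.28, adjusted p = 0.001). All null libraries lay above all WT libraries for these genes. Gbp6 was at 6.30, 6.01 and 5.03 CPM in WT and 31.4, 45.5 and 78.3 CPM in null cells (log2 fold change 3.16, SE 0.52, adjusted p = 0.00012), and Gbp10 at 0.544, 0.258 and 0.526 against 5.91, 10.3 and 22.6 CPM in null cells (log2 fold change 4.86, SE 0.85, adjusted p = 0.00024), although these 2 genes are close copies whose reads may be split. The other 5 were Gbp8, Irgm1, Irgm2, Tgtp1 and Tgtp2, with log2 fold changes of 1.09 to 1.74. Null replicate 3 held the highest level of 8 of the 10 genes. Without it 6 were called, Iigp1 and Gbp9 among them, and the calls of Irgm1 (0.99), Irgm2 (0.62), Tgtp1 (0.99) and Tgtp2 (1.28) were lost. Without WT replicates 1, 2 and 3 in turn, the adjusted p of Irgm2 was 0.069, 0.093 and 0.11 and that of Tgtp1 0.058, 0.05 and 0.076, none of them a call. Irgm2 was not called without null replicate 2 (adjusted p = 0.05) nor Irgm1 without WT replicate 3 (adjusted p = 0.062). Irgm2 was not called either with the replicate number as a block within each background (log2 fold change 0.99). Of 24 interferon-stimulated genes 1 was called higher and 3 lower, with a median of 0.01, and the 2 lists were not compared by a test. The antiviral gene Ifit3 was at 3.005, 5.07 and 1.49 against 0.467, 0.609 and 0.656 CPM in null cells (log2 fold change -2.46, SE 0.49, adjusted p = 0.0009). Ifit2 and Oas3 were also called lower. Ifit2 was under the fold limit with library totals, with both replicate blocks and without null replicate 3 or WT replicate 1 or 2. The call of Oas3 was lost without null replicate 1 or 2 or WT replicate 1 or 2 (adjusted p of 0.051 to 0.10).

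Of 15 checkpoint and co-stimulatory receptor genes 4 were called higher and 1 lower, and of 19 chemokine receptor genes 5 were called higher and 1 lower. Cd160, a receptor of the ligand HVEM, was at 6.38, 9.48 and 10.8 CPM in WT and 50.5, 42.1 and 49.3 CPM in null cells (5.31-fold higher, log2 fold change 2.41, SE 0.36, adjusted p = 3.5e-05). Cd96 was at 44.0, 52.1 and 50.8 against 142, 130.4 and 188 CPM in null cells (log2 fold change 1.65, SE 0.32, adjusted p = 0.0008), and its relative Cd226 at 50.9, 47.5 and 42.2 against 107, 89.0 and 96.2 CPM in null cells (log2 fold change 1.06, SE 0.21, adjusted p = 0.0011). Without null replicate 1 the log2 fold change of Cd226 was 0.98, and 2 genes of the list were called higher. The groups did not overlap for these 3 genes. Cd80, a ligand of CD28 and CTLA-4, was lower, at 48.0, 49.9 and 34.4 against 11.3, 11.6 and 23.4 CPM in null cells (log2 fold change -1.52, SE 0.25, adjusted p = 0.00012). Among TNF family genes, the OX40 ligand gene Tnfsf4 was at 29.99, 31.2 and 32.7 CPM in WT and 108, 89.3 and 150.2 CPM in null cells (log2 fold change 1.89, SE 0.24, adjusted p = 3e-06) and Cd27 at 54.9, 63.0 and 74.4 against 163, 180.0 and 141 CPM in null cells (log2 fold change 1.33, SE 0.18, adjusted p = 7.8e-06). The chemokine receptor gene Cxcr6 was at 1.09, 1.48 and 1.33 against 6.62, 10.3 and 5.80 CPM in null cells (log2 fold change 2.54, SE 0.36, adjusted p = 1.9e-05) and Cxcr4 at 7.18, 12.4 and 15.8 against 30.2, 27.3 and 28.3 CPM in null cells (log2 fold change 1.27, SE 0.25, adjusted p = 0.0008). All null libraries lay above all WT libraries for these 4 genes. Of 16 cytotoxic granule genes Nkg7, a membrane protein of granules in cytotoxic cells, was the 1 called, at 14.6, 13.8 and 14.4 CPM in WT and 109, 122 and 269 CPM in null cells (11.7-fold higher, log2 fold change 3.55, SE 0.43, adjusted p = 2.1e-06).

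**Figure D4:**
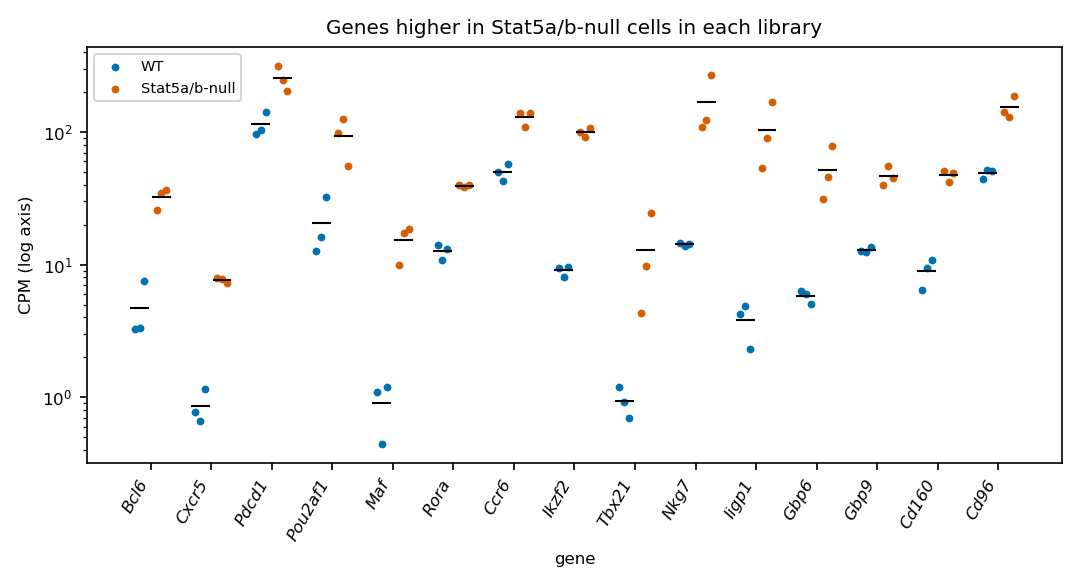
CPM (log y axis) of 15 genes called higher in null cells, in each WT library (blue) and null library (orange), with a black line at the group mean of 3. Ikzf2 and Rora vary little within a group, whereas the null libraries of Tbx21 range from 4.34 to 24.6 CPM and those of Iigp1 from 53.6 to 167 CPM.

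The remaining large rises were in genes of diverse roles. Nts, the neuropeptide neurotensin, was at 0.114, 0.0469 and 0.295 CPM in WT and 2.28, 4.75 and 13.6 CPM in null cells (42.8-fold higher, log2 fold change 5.42, SE 0.84, adjusted p = 5.8e-05). Cybb, the catalytic subunit of the phagocyte oxidase, was at 0.114, 0.117 and 0.505 against 5.55, 4.96 and 4.97 CPM in null cells (20.1-fold higher, log2 fold change 4.33, SE 0.68, adjusted p = 6.8e-05). The potassium channel gene Kcnf1 was at 1.29, 1.501 and 1.41 against 14.6, 10.2 and 28.7 CPM in null cells (log2 fold change 3.67, SE 0.55, adjusted p = 3.2e-05). Arhgap20, Gpr101, Serpina3f, Mpeg1 and Apol7b completed the 12 largest rises, with log2 fold changes of 3.62 to 4.79. The call of Apol7b was lost without each library other than WT replicate 3 (adjusted p of 0.061 to 0.19) and under other scalings. Mpeg1, the gene of perforin-2, and Cybb are also expressed by macrophages. The 13 myeloid markers, Mpeg1 included, summed to 4.88 to 7.34 CPM in WT and 6.46 to 14.7 CPM in null libraries, with Lyz2 at 0 to 0.173 CPM, and none of the other 12 was called. The 10 B cell markers summed to 2.44 to 4.42 CPM in WT and 4.95 to 5.71 CPM in null libraries, and none was called. The part of these markers in the results was not tested. The 7 NK and gamma-delta T cell markers tested summed to at most 2.45 CPM in any library, and the 3 erythroid markers to at most 1.45 CPM. The CD8 gene Cd8b1 was called higher, at 7.53, 7.62 and 6.12 CPM in WT and 20.1, 15.1 and 17.2 CPM in null cells (log2 fold change 1.30, SE 0.20, adjusted p = 6.2e-05), while Cd8a was at 0 to 0.414 CPM in the 6 libraries. Of 11 genes of CD4 T cells 1 was called lower, and none higher. This was Thy1, a surface glycoprotein of T cells, at 1079.8, 1584 and 647 CPM in WT and 153, 165 and 118 CPM in null cells (7.60-fold lower, log2 fold change -2.93, SE 0.31, adjusted p = 2.4e-07). Cd3e, of the T cell receptor complex, was at 280.1, 316 and 337 against 412, 511 and 468 CPM in null cells (log2 fold change 0.58, SE 0.13, adjusted p = 0.0037).

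Genes next to the deleted locus were described as well. Of 21 neighbours tested on chromosome 11, 1 was called higher and none lower. Ptrf (Cavin1, a coat protein of caveolae; chr11:100956733-100970887) was at 1.03, 1.03 and 1.199 CPM in WT and 5.61, 7.10 and 8.97 CPM in null cells (6.61-fold higher, log2 fold change 2.73, SE 0.46, adjusted p = 0.00015). Stat3 (chr11:100885098-100939540), which transmits IL-6 signals and lies between Stat5a and Ptrf, was at 197, 209 and 209 against 283, 377 and 378 CPM in null cells (log2 fold change 0.75, SE 0.16, adjusted p = 0.0019). The annotated ends of Stat3 and Stat5a overlap on opposite strands, and the strand setting of the counting is not given in the sources used here.

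Few genes of the other lists were called. Of 11 STAT and JAK genes 1 was called higher and 2, Stat5a and Stat5b, lower. Of 19 AP-1 and BATF genes 1 was called lower. Batf3, a factor of dendritic cells that activated T cells also make, was at 8.84, 7.51 and 1.199 CPM in WT and 0.192, 0.551 and 1.21 CPM in null cells (log2 fold change -3.20, SE 0.85, adjusted p = 0.011), with overlapping groups and no call without null replicate 1 (adjusted p = 0.065) or 2 (adjusted p = 0.053) or with the replicate number as a block within each background (adjusted p = 0.085). Of 12 stress and dissociation genes 2 were called lower, the heat shock genes Hspa1a (log2 fold change -3.05, SE 0.60, adjusted p = 0.00087) and Hspa1b (log2 fold change -2.82, SE 0.55, adjusted p = 0.00072), near-identical copies with WT libraries of 2.06 to 4.49 CPM and null libraries of 0.0825 to 1.04 CPM. Of 7 receptor genes of the IL-6 family Il6st was called higher, of 12 chemokine ligands Xcl1 and Ccl20, which had 1 read in each WT library, and of 12 amino acid transporters Slc43a1. Of 14 TNF ligands 1 was called higher and 2 lower (Lta and Tnf), and of 16 TNF receptors 2 higher and 2 lower. None of the 7 genes of cyclin-dependent kinase inhibitors and none of the 5 sex-linked genes was called.

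The same background difference was measured in other libraries, in which both null and WT cells carried a vector encoding STAT5B or its Y665H form. These comparisons share no library with that of the empty vector, but they are not independent of it. Within a background, 59 of 60 pairs of libraries with the same replicate number and different vectors had deviations from the group means that correlated above 0.1 (median r = 0.588), and the shares of common calls below have no value for chance beside them. With the STAT5B vector 377 genes (1.72%) were called between null and WT cells, 186 higher (0.846%) and 191 lower (0.869%). With Y665H 796 (3.62%) were called, 467 higher (2.13%) and 329 lower (1.5%). Of the 561 genes raised with the empty vector, 338 (60.2%) were called higher with Y665H and 167 (29.8%) with STAT5B, which are 72.4% of the 467 and 89.8% of the 186. Their median log2 fold change was 1.57 with the empty vector, 1.34 with Y665H and 1.08 with STAT5B. Of the 468 lowered genes, 271 (57.9%) were called lower with Y665H and 144 (30.8%) with STAT5B, which are 82.4% of the 329 and 75.4% of the 191. Their medians were -1.92, -1.34 and -1.05. Both sets were chosen by the size of their difference with the empty vector, which enlarges the empty-vector median. Smaller medians with the other vectors therefore do not by themselves show an effect of the vector. The Stat5b transcript, which both vectors encode, differed between null and WT cells by -0.65 (SE 0.25) with STAT5B and -0.89 (SE 0.25) with Y665H, and Stat5a, which neither vector carries, by -5.66 and -4.45.

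Whether the background difference itself changed with the vector was tested by an interaction. Between the empty and the STAT5B vector, 22 genes (0.1%) passed, 21 of which (0.0956%) were lowered more with the empty vector and 1 (0.00455%), Bcl6, raised more. An unadjusted p under 0.05 was found for 1079 of the 21975 genes tested. This is no more than the share of 0.05 expected if no gene differed. With the replicate number as a block within each background 41 genes passed. Cish differed between null and WT cells by -4.15 with the empty vector, -2.67 with Y665H and -1.02 with STAT5B, and the first and last differed by -3.13 (SE 0.40, adjusted p = 9.6e-05). For Socs2 these differences were -5.75, -3.91 and -1.59 (interaction -4.16, SE 0.41, adjusted p = 1e-06), and for Il2ra -3.08, -2.62 and -1.10 (interaction -1.98, SE 0.32, adjusted p = 0.0029). Bcl6 was 2.78 with the empty vector, 1.98 with Y665H and 0.65 with STAT5B (interaction 2.12, SE 0.42, adjusted p = 0.027). Other raised genes did not pass this test, which does not show that their differences were equal. In the same order, Iigp1 was 4.78, 4.07 and 4.64, Nkg7 3.55, 3.20 and 3.30, and Ikzf2 3.46, 3.09 and 2.78. Lowered genes such as Thy1 (-2.93, -2.57 and -2.03) and Lta (-3.66, -3.29 and -2.07) did not pass the interaction either. Between the empty and the Y665H vector, Stat5b, which the Y665H vector encodes, was the 1 gene (0.00455%) that passed by edgeR. Here 917 of the 21975 genes had an unadjusted p under 0.05, again no more than the share of 0.05.

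**Figure D5:**
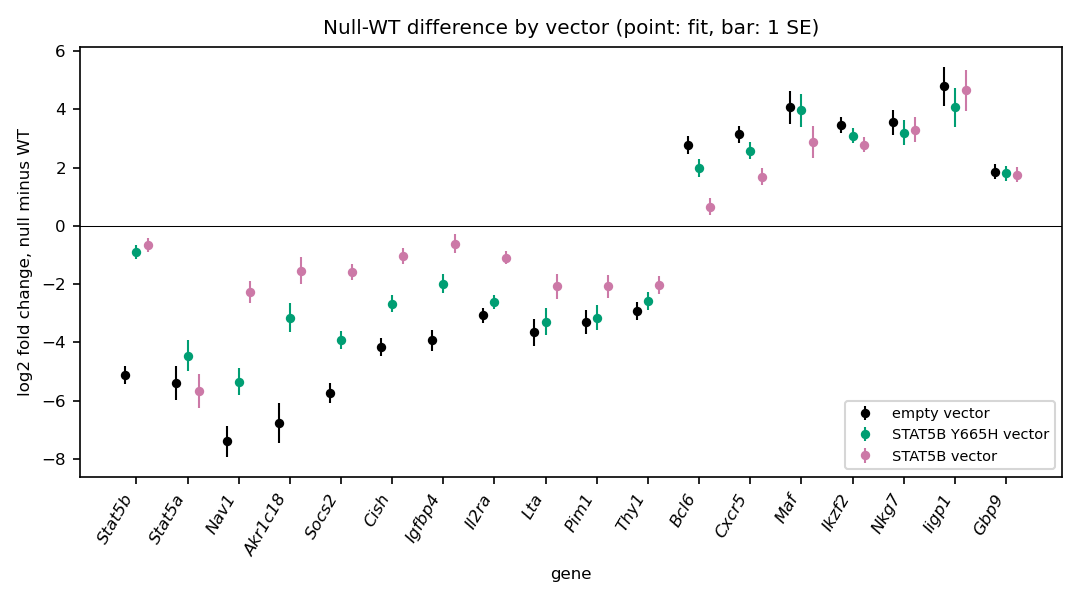
Log2 fold change between null and WT cells (y axis; bars, 1 SE of the fit) for 18 genes in cells with the empty vector (black), the STAT5B Y665H vector (green) and the STAT5B vector (pink), 3 libraries per background and vector. Cish, Socs2, Nav1 and Igfbp4 lie nearest to 0 with STAT5B, while Iigp1, Gbp9 and Nkg7 lie at similar heights with all 3 vectors.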

How the data were processed

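The authors prepared stranded total RNA libraries without ribosomal RNA, trimmed the reads with Trimmomatic 0.36, aligned them to mm10 with STAR and counted them per gene with HTSeq 0.9.1. The deposited files hold these raw counts for 24421 genes, followed by 5 lines that count reads assigned to no gene (28.8% to 34.7% of counted reads in the 6 libraries), which were left out. No column was left unused for want of a sample.

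Counts of the 30 CD4+ T cell libraries (10 groups) were fitted in R 4.3.3 with edgeR 4.0.16 (genes with at least 10 reads, TMM, glmQLFit). The contrast of null minus WT cells with the empty vector was tested with glmQLFTest, with Benjamini-Hochberg adjustment over 21975 genes. Calls needed an adjusted p below 0.05 and a difference of more than 1 on the log2 scale. Each SE was derived from the log2 fold change and its F statistic. Genes were named from 38 lists (up to 4 called members a direction) and as the 12 largest rises and falls with a mean of at least 1 CPM, no overlap between groups and a symbol of neither the Gm nor the Rik type. Pim1, Pim3, Cxcr5, Tox2, Il3, Csf2, Mvd, Tcf7, Lef1, Gbp6, Gbp8, Gbp9, Tgtp1 and Tgtp2 were named after their values were seen. The comparison, members and lists were chosen with earlier results of these data known. Alternatives were RLE factors, library totals, DESeq2 1.42.0, filterByExpr, no filter, the 6 libraries alone, replicate blocks (limma 3.58.1), no fold limit and leaving out each library. Coordinates are from GENCODE M21 (mm10). In simulated data for this comparison (21975 genes) libraries were drawn independently, and changed genes were taken from those with a mean of at least 1 CPM. Of these, 96 of 100 genes changed by 2 on the log2 scale and 100 of 100 changed by 3 were recovered, with 6 false calls. The simulation does not cover the recovery of genes at lower levels or correlated libraries. Correlations of log2 CPM within a group were 0.973 to 0.990, and no libraries agreed within sampling noise. Some members of these lists are not reported here by name.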

Additional observations from a re-analysis of the deposited data

Results flagged for a closer look

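The background difference depended on the vector for 22 genes when the empty and the STAT5B vectors were compared by the interaction test in edgeR, with an adjusted p under 0.05 and a difference beyond 1 on the log2 scale. In 21 of them the null cells fell further below WT cells with the empty vector. Among the genes described, the null-WT difference with the empty vector minus that with STAT5B was -5.22 for Akr1c18, -5.12 for Nav1, -4.46 for Stat5b, -4.16 for Socs2, -3.31 for Igfbp4, -3.13 for Cish and -1.98 for Il2ra. Bcl6 was the 1 gene with a larger rise with the empty vector, by 2.12. Between the empty and the Y665H vector the difference passed for 1 gene, Stat5b, at -4.22. Both the STAT5B and the Y665H vector encode Stat5b, so that its 2 interactions follow from the constructs and do not describe a response of the cells.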

How the results depend on the processing

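The number of genes called between null and WT cells was 1029 and became 3052 (1501 higher and 1551 lower) with no fold limit. Leaving out each library in turn gave 658 to 1216 called genes, 353 to 696 higher and 305 to 520 lower, 2.01% to 3.67% of the WT level for Stat5b and 1.53% to 3.10% for Stat5a. It gave 13 to 16 lowered STAT5 targets, 3 to 4 lowered common gamma-chain receptors, 5 to 9 raised Tfh genes, 3 to 7 raised Th17 genes and 6 to 10 raised interferon-induced GTPases. With no fold limit, an alternative chosen after seeing the data, it gave 11 to 28 lowered cell cycle genes, 10 to 18 cholesterol genes and 1 to 7 glycolysis genes. With the 6 libraries fitted alone 19 cell cycle genes were lower. The cause was not tested. Of 124 called genes followed singly, 96 kept their call under all 14 settings, 115 kept it under all those that kept every library, and none changed direction. DESeq2 called 1171 genes, and other scalings 1021 and 1024.

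Replicate numbers were not taken to pair null with WT libraries, which was a choice of the design. Deviations from the group means correlated above 0.1 in 2 of 3 same-numbered pairs of empty-vector libraries (r = 0.157, -0.088 and 0.110). They did so in 2 of 6 pairs with different numbers. In the other pairs across backgrounds, 33 of 72 with the same number and 35 of 144 with different numbers did. These values do not settle whether the numbers pair. With the number as a fixed replicate block 1234 genes were called, 705 higher and 529 lower, and with a random block within each background (limma) 1123, 667 higher and 456 lower. With the replicate block, the STAT5B vector gave 644 in place of 377 called genes, and the interactions 55 in place of 22 (STAT5B) and 3 in place of 1 (Y665H). The block within each background, chosen after seeing the data for these contrasts, gave 41 in place of 22. Between vectors in a background, 59 of 60 same-numbered pairs correlated above 0.1.

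Fold changes of genes near 0 CPM in either group rest on few reads, and 96 raised and 123 lowered genes had a mean under 1 CPM.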

Other observations

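Genes outside the lists were also described, chosen after their values were seen from those called at a group mean above 60 CPM. Those described include 4 enzymes of fatty acid synthesis, which stand for no list. Scd1, a stearoyl-CoA desaturase, was at 115, 83.9 and 21.6 CPM in WT and 5.44, 3.33 and 4.80 CPM in null cells (log2 fold change -4.02, SE 0.74, adjusted p = 0.0004), and its relative Scd2 at 1046, 975 and 579.5 against 450.2, 349.6 and 349 CPM in null cells (log2 fold change -1.18, SE 0.30, adjusted p = 0.0089). The fatty acid desaturase gene Fads2 was at 102, 103 and 56.5 against 23.2, 14.6 and 16.7 CPM in null cells (log2 fold change -2.26, SE 0.36, adjusted p = 8e-05) and the elongase gene Elovl6 at 109, 114 and 58.1 against 37.9, 23.2 and 23.1 CPM in null cells (log2 fold change -1.74, SE 0.30, adjusted p = 0.00024). WT replicate 3 held the lowest WT level of all 4 genes. Xbp1, a factor of the unfolded protein response and of secretory cells, was at 325, 351 and 204 CPM in WT and 66.6, 62.5 and 68.9 CPM in null cells (log2 fold change -2.15, SE 0.24, adjusted p = 4.9e-07). Of the Notch pathway, the receptor gene Notch2 was at 331, 248 and 376 against 69.7, 114 and 105 CPM in null cells (log2 fold change -1.72, SE 0.29, adjusted p = 0.00019) and the receptor-modifying enzyme gene Lfng at 169, 298 and 166 against 51.0, 78.9 and 53.0 CPM in null cells (log2 fold change -1.79, SE 0.25, adjusted p = 1.7e-05). Il10ra, the ligand-binding chain of the IL-10 receptor, was chosen at a lower level, at 29.5, 39.1 and 16.0 against 4.34, 6.90 and 8.94 CPM in null cells (log2 fold change -2.07, SE 0.44, adjusted p = 0.0016).

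Among raised genes, the interferon regulatory factor gene Irf1 was at 26.2, 37.8 and 34.1 CPM in WT and 95.8, 147 and 208 CPM in null cells (log2 fold change 2.20, SE 0.41, adjusted p = 0.00042), and Irf2 at 58.7, 51.7 and 82.0 against 133, 164 and 159.7 CPM in null cells (log2 fold change 1.25, SE 0.21, adjusted p = 0.00014). The inflammatory caspase gene Casp4 was at 26.9, 26.5 and 21.8 against 87.3, 74.2 and 57.4 CPM in null cells (log2 fold change 1.54, SE 0.17, adjusted p = 5.8e-07). Cd74, the invariant chain of MHC class II, was at 28.6, 38.4 and 52.0 CPM in WT and 164, 170.0 and 177 CPM in null cells (log2 fold change 2.10, SE 0.23, adjusted p = 3.9e-07). Myb, a factor of progenitors and of stem-like T cells, was at 72.4, 72.6 and 138 against 271, 291 and 204 CPM in null cells (log2 fold change 1.44, SE 0.23, adjusted p = 6.8e-05), the surface protein gene Itm2a at 114, 92.1 and 162 against 649.6, 489 and 501 CPM in null cells (log2 fold change 2.15, SE 0.25, adjusted p = 1.1e-06), and Actn1, which crosslinks actin, at 48.4, 43.8 and 65.9 against 215, 225 and 309 CPM in null cells (log2 fold change 2.24, SE 0.25, adjusted p = 6.4e-07). The groups' libraries did not overlap for any gene named here, as for 98.2% of all called genes and 26.8% of all genes tested.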
